A study of Mus musculus with 931 samples.

Results

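The 9 genes described here encode neuropeptide precursors: Pdyn, Npy, Gal, Cartpt, Cck, Vip, Adcyap1, Nts and Tac1. They were chosen by name, as rows of the read-count tables carrying those symbols, and all 9 had a row among 40824 gene rows. The data were RNA sequencing of mouse pancreatic islet cells from E17.5 to P60. Bulk libraries came from sorted β cells of Ins1-RFP mice, whose background mixes C57BL/6 and C3H, with 2 libraries at each of 7 stages: E17.5, the day of birth (P0) and postnatal days 3, 9, 15, 18 and 60 (P3 to P60). Single β cells came from the same strain and stages, and single α cells from Gcg-Cre, Rosa-RFP mice at all of those stages but P3. The α reporter mice mix CBA/J with C57BL/6 and C3H. In addition, 4 single cells came from Ngn3-GFP mice at P0. All animals carried a reporter, and no other allele, agent or treatment is named. The reporters limit what a group stands for: Ins1-RFP marks cells in which the Ins1 promoter is active, while Gcg-Cre with Rosa-RFP marks a cell for good once the Gcg promoter has driven Cre. The labels name batches but no animals, so n counts bulk libraries or batches of cells, and every p measures the spread between these, which may be technical.

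Neuropeptides are short signalling peptides cut from longer precursors in the secretory pathway and released from dense-core granules, the same route that insulin and glucagon take. Convertases such as PC1/3 and PC2 make the first cuts, carboxypeptidase E trims the ends, and several peptides are then amidated. In the pancreas these peptides are best known from nerve fibres that reach the islet, but endocrine cells make some of them too. Galanin and neuropeptide Y are known to inhibit insulin secretion, while VIP, PACAP (from Adcyap1) and cholecystokinin are known to stimulate it.

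The promoters of 4 of the genes are shown because their transcripts carried the stage differences described below: Cartpt, Cck and Gal, which fell in α cells, and Pdyn, which rose in β cells. Each run gives the 250 bases before the RefSeq transcript start on GRCm38.p6, the build family of the deposited counts, read 5′ to 3′ on the strand of the gene. Capitals mark matches, on either strand, to the cyclic AMP response element TGACGTCA, its core TGACG, the E-box CACGTG or the AP-1 site TGACTCA, and on the gene's strand to TATAAA. The Cartpt run lies at chr13:99900684-99900933, the Cck run at chr9:121495695-121495944, the Gal run at chr19:3414545-3414794 and the Pdyn run at chr2:129699939-129700188, all 4 on the minus strand. The Cartpt run lies inside the bounds that GENCODE M21 gives the gene, which has a longer transcript.
Cartpt: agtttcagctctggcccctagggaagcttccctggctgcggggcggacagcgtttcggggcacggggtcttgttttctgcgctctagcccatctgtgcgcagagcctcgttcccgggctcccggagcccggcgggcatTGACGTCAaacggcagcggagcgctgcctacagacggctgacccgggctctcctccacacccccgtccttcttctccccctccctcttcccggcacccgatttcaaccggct
Cck: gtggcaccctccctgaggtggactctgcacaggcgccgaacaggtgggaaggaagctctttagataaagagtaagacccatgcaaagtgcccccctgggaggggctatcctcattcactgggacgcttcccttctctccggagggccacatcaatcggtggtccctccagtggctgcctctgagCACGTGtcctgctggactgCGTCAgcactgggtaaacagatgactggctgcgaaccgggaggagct
Gal: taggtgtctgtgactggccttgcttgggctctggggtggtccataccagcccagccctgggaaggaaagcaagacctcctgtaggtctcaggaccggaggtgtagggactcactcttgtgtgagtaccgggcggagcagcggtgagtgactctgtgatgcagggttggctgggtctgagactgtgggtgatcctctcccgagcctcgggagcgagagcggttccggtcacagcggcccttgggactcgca
Pdyn: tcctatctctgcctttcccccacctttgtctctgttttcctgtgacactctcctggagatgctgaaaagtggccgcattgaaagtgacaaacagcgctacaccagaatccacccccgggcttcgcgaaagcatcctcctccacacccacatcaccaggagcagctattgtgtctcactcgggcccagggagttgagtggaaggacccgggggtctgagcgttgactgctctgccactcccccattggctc

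The full TGACGTCA element lay in the Cartpt promoter alone among the 9 genes, starting 112 bases before the transcript start, and 1.55% of the 32851 RefSeq promoters held it in a window of the same length. Its core TGACG, which also lies within the full element, was found in the promoters of 6 of the 9 genes, Cck among them, against 17.8% of all promoters. CACGTG was found for Cck and Tac1 (6.02% of all promoters), TATAAA for Vip and Adcyap1 (7.59%) and TGACTCA for Nts (4.46%). The 9 genes had 11 promoters, and a gene counted if any of its promoters matched, whereas the percentages count single promoters. Adcyap1 also had a promoter without TATAAA. The runs of Gal and Pdyn, and that of Npy, held no match to any of these strings. A match describes letters only.

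GENCODE M21, on GRCm38, places Pdyn (ENSMUSG00000027400) at chr2:129686565-129699844 on the minus strand, Npy (ENSMUSG00000029819) at chr6:49822710-49829507 on the plus strand and Gal (ENSMUSG00000024907) at chr19:3409915-3414544 on the minus strand. It places Cartpt (ENSMUSG00000021647) at chr13:99898489-99901091 on the minus strand and Cck (ENSMUSG00000032532) at chr9:121489824-121495694 on the minus strand. All 9 genes are protein-coding, and no annotated exon of another gene overlaps theirs.

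The 14 bulk libraries held 10.3 M to 21.4 M gene reads, and 917 single cells held 0.521 M to 2.32 M reads (median 1.15 M). Unselected cells of 1 hormone numbered 538 β cells (25 batches) and 328 α cells (20 batches). Of these 45 batches, 23 were FACS-sorted and 22 picked by hand. The labelled types carried their markers: the summed level of the β list was 176622 to 802912 CPM (read counts scaled to library size) in β batches at E17.5 and P60 and 511.8 to 3804 CPM in α batches, and that of the α list was 75661 to 603026 CPM in α batches and 610 to 1918 CPM in β batches. In the bulk libraries, all 10 markers of acinar cells, which make digestive enzymes, rose from E17.5 to P60, and their summed level ran from 189.7 CPM in a P0 library to 55093 CPM in the P60 replicate 1 library. In bulk, fewer cells of a type and less RNA per cell cannot be told apart. Low-count filters left 5 of the 9 genes in the bulk test (Pdyn, Gal, Npy, Vip and Cartpt) and 6 in the test of single-cell batches (Pdyn, Gal, Npy, Cartpt, Tac1 and Cck). Adcyap1 and Nts were tested in neither.

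Pdyn, which encodes the precursor of the opioid peptides dynorphin and neoendorphin, rose in β cells between E17.5 and P60, in bulk and in single cells, and no other gene of the 9 was called higher at the later stage. In bulk β cells its level was 0.222 and 0.205 CPM at E17.5, 0 and 0.173 CPM at P0, 0.554 and 0.294 CPM at P3, and 1.52 and 0.929 CPM at P9. It was 1.21 and 0.399 CPM at P15, 21.4 and 1.12 CPM at P18, and 54.4 and 68.8 CPM at P60. Both P60 libraries lay above all earlier ones, and at P18 replicate 1 was high and replicate 2 near the P9 values. The log2 change from E17.5 to P60 was 8.12 ± 1.24 (SE, adjusted p = 0.000661), in a comparison in which 29.1% of 16086 genes were called, 13.8% higher and 15.2% lower. From P9 to P60 it was 5.60 ± 1.03 (adjusted p = 0.0057; 16.2% of genes called, 6.79% higher), whereas from E17.5 to P9 it was 2.51 ± 1.32 (adjusted p = 0.296; 8.18% called, 3.49% lower). The acinar markers moved with these stages: with their summed level as a covariate the E17.5 to P60 change was 8.75 (adjusted p = 0.0726). Without the P9 replicate 1 library, the P9 to P60 change was 6.05 (adjusted p = 0.0522).

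In single β cells Pdyn was likewise rare before P18. No read was found in the 57 cells at E17.5, which, taking 3 cells as the limit of a count of 0, allows a share of up to 5.26% of cells. Reads were found in 1 of 71 P0 cells, 1 of 88 P3 cells, 1 of 65 P9 cells and 3 of 57 P15 cells. The share was 12.7% at P18 (9 of 71 cells, exact 95% interval 5.96% to 22.7%) and 27.9% at P60 (36 of 129 cells, 20.4% to 36.5%). These intervals cover the error of counting cells only, not the spread between batches. The 5 batches at P60 ran from 4.76% to 42.9% of cells and from 1.57 to 73.5 CPM (median 23.2 CPM), so the batches differed widely while each held Pdyn reads, and the lowest lay under the limit at E17.5. The 3 batches at P18 held 5.08, 16.1 and 90.2 CPM, which overlap with those of P60, and 1 cell gave 39.6% of the P18 reads. The cells were unequal too: the highest cell at P60 held 564.5 CPM, and the median of the P60 cells with reads was 47.9 CPM. Over the whole group the level at P60 was at least 927-fold higher than at E17.5, counting 3 reads for the empty group (adjusted p = 0.0141; 6.97% of 18537 genes called, 3.08% higher and 3.89% lower). This bound covers the counting of reads only. It does not allow for cells with Pdyn missed at E17.5, each of which could bring many reads. Leaving out any 1 of the 3 batches at E17.5 took the adjusted p to between 0.0561 and 0.0767. The bound was 414-fold without batch 2 and 601-fold without batch 3 at E17.5, and 579-fold without batch 3 at P60. In α cells, 1 read in 1 of 328 cells was all that was found, and at P60 the β level was 2851-fold that of α cells (interval from counts 511-fold to 112641-fold, adjusted p = 0.00192; 12.9% of genes called, 7.02% lower). That interval treats reads as independent and leaves out the spread between cells and batches. Without the α batch 1, which held that read, the level was at least 723-fold higher in β cells, and without the β batch 3 the ratio was 1779-fold.

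**Figure D1:**
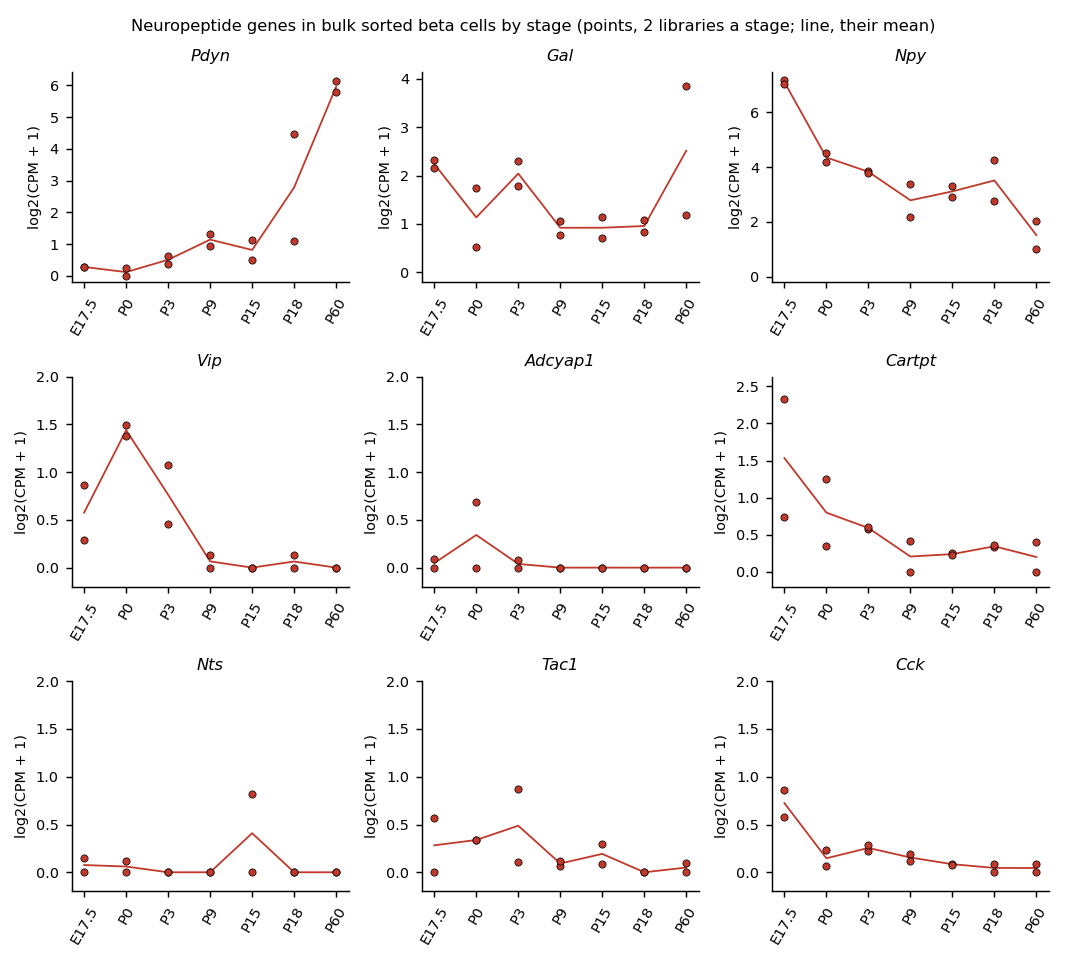
Level of each of the 9 genes in bulk sorted β cells at 7 stages, on a log2(CPM + 1) axis that differs between panels; points are the 2 libraries of a stage and the line joins their means. Pdyn is highest in both P60 libraries (54.4 and 68.8 CPM) and Npy in both E17.5 libraries (144 and 130 CPM), while Adcyap1, Nts, Tac1 and Cck stay below 1 CPM in every library.

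Npy encodes neuropeptide Y and, in these data, was the most abundant of the 9 genes in β cells before birth. In bulk β cells it stood at 144 and 130 CPM at E17.5, 21.8 and 17.3 CPM at P0, 13.7 and 12.8 CPM at P3, and 9.49 and 3.55 CPM at P9. Later values were 6.55 and 8.94 CPM at P15, 18.2 and 5.79 CPM at P18, and 3.04 and 1.02 CPM at P60. The E17.5 libraries lay above all others, and those of P60 below all others. The log2 change was -4.35 ± 0.57 from E17.5 to P9 (adjusted p = 0.00104) and -6.08 ± 0.64 from E17.5 to P60 (adjusted p = 6.56e-05), so that Npy fell in both. Between P9 and P60 the change was -1.73 ± 0.60 (adjusted p = 0.0711). With the acinar level as a covariate the E17.5 to P9 change was -4.02 (adjusted p = 0.204).

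The fall was also seen cell by cell. Npy reads were found in 77.2% of β cells at E17.5 (44 of 57). The share was 60.6% at P0, 36.4% at P3, 23.1% at P9 and 7.02% at P15, then 11.3% at P18 and 13.2% (17 of 129) at P60. Neighbouring stages from P15 to P60 did not differ beyond the spread of their batches, which ran from 0% to 34.5% at P60. Counting only cells with at least 10 reads, the shares were 63.2% at E17.5, 9.23% at P9 and 6.98% at P60. Summed per batch, the level was 422.2, 990 and 1042 CPM at E17.5, and at P60 it was 0, 0.116, 0.585, 1.85 and 51.2 CPM. All batches at E17.5 stood above all at P60, and the log2 change was -6.30 ± 1.53 (adjusted p = 0.00802). At P9 the 3 batches held 0.445, 53.4 and 220 CPM, and neither step was called on its own: E17.5 to P9 had a log2 change of -3.11 ± 1.65 (adjusted p = 0.485; 1.25% of genes called) and P9 to P60 of -3.19 ± 1.50 (adjusted p = 0.498; 0.626% called). The highest cell held 6876 CPM of Npy at E17.5 and 436.6 CPM at P60. Without batch 3 at P60 the share at that stage was 7.00% (7 of 100 cells).

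Npy separated β from α cells, and at E17.5 it was the only 1 of the 5 genes that could be fitted (all 6 but Pdyn) to be called between them. The 4 α batches held 0, 1.21, 2.56 and 10.6 CPM at that stage, below each β batch, and 18.5% of α cells had a read (12 of 65), or 11.4% without batch 2 (5 of 44). After E17.5, Npy reads were found in 1 of 45 α cells at P9 and 2 of 83 at P60 and in no α cell at P0, P15 or P18. The α level was lower at E17.5 (log2 difference -7.70 ± 1.80, adjusted p = 0.00436; 8.31% of genes called, 5.06% lower) and over the 6 shared stages (-9.76 ± 1.32, adjusted p = 4.43e-07; 28.8% called, 14.1% higher and 14.6% lower). At P60 the call was weak: -4.94 ± 1.68 (adjusted p = 0.048), which rested on the β batch 3 at 51.2 CPM, since without it the difference was -1.21 (adjusted p = 0.742). Leaving out α batch 1, 2, 3 or 4 at P60 likewise gave adjusted p-values of 0.0941 to 0.108, and in FACS-sorted batches alone the difference was 0.88 (adjusted p = 0.903), with the opposite sign.

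**Figure D2:**
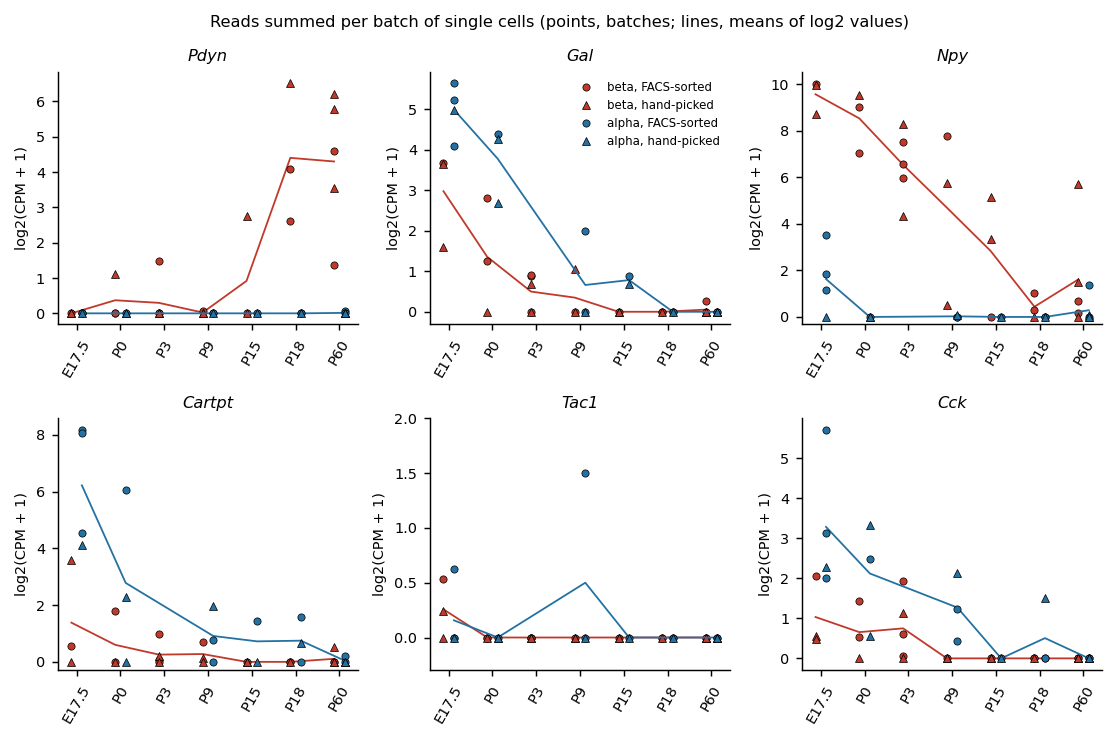
Level of 6 genes in reads summed per batch of single cells, as log2(CPM + 1) on axes that differ between panels, for β cells (red) and α cells (blue); circles are FACS-sorted batches, triangles hand-picked ones, and lines join the means of the log2 values. Npy in β batches lies between 422.2 and 1042 CPM at E17.5 and at 51.2 CPM or less at P60, Pdyn in β batches is highest at P18 and P60, and Gal, Cartpt and Cck are highest in α batches at E17.5.

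Gal encodes galanin, a peptide that inhibits insulin release. At E17.5 each α batch lay above each β batch, but that difference did not pass the test. In α cells the 4 batches at E17.5 held 16.2, 30.7, 36.5 and 48.8 CPM and the 3 at P0 held 5.46, 18.1 and 19.9 CPM. The 3 at P9 held 0, 0 and 2.96 CPM, and no read was found in the 3 batches at P18 or the 5 at P60. All batches at E17.5 lay above all those of P9 and later, and the P60 level was at least 932-fold lower than that of E17.5 (adjusted p = 0.000551; 9.97% of genes called, 5.66% lower). As for Pdyn, this bound covers the counting of reads only, not cells missed at P60. Shares of α cells with Gal reads were 56.9% at E17.5 (37 of 65), 41.3% at P0 (19 of 46), 2.22% at P9 (1 of 45) and 4.44% at P15 (2 of 45), and 0 of 83 cells at P60 allow up to 3.61%. The log2 change from E17.5 to P9 was -5.38 ± 1.92 and did not pass (adjusted p = 0.131; 3.48% of genes called).

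In β cells, Gal batches at E17.5 held 2.02, 11.6 and 11.9 CPM, and those at P60 held 0, 0, 0, 0 and 0.205 CPM. The groups did not overlap, and Gal fell by 7.68 ± 1.79 on the log2 scale (adjusted p = 0.00701). Reads were present in 28.1% of β cells at E17.5 (16 of 57), 14.1% at P0, 4.55% at P3, 3.08% at P9 and 0.775% at P60 (1 of 129). Without batch 1 the share was 5.26% at P0 and 2.82% at P3. The α against β difference was 1.57 ± 1.63 at E17.5 (adjusted p = 0.657), and the difference between the 2 cell types in their E17.5 to P60 change was -4.62 ± 2.65 (adjusted p = 0.425; 3.67% of genes called). Bulk β cells gave another picture at P60, with 13.3 CPM in replicate 1 (188 reads) and 1.28 CPM in replicate 2 (20 reads), against 3.43 and 4.03 CPM at E17.5. That difference did not pass (log2 change 0.96 ± 0.88, adjusted p = 0.45), nor did P9 to P60 (3.02 ± 0.98, adjusted p = 0.0565). The replicate 1 library at P60 also had the highest acinar level of the 14 libraries, 55093 CPM against 18938 CPM in replicate 2; the part of other cells in its Gal level was not tested.

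Cartpt, the precursor of cocaine- and amphetamine-regulated transcript peptide, reached a higher level in 2 α batches than any other of the 9 genes in any α batch. Its α batches held 16.2, 22.1, 268.8 and 287.7 CPM at E17.5 and 0, 3.88 and 65.8 CPM at P0, which already overlap. From P9 to P18 no α batch exceeded 2.92 CPM, and the 5 batches at P60 held 3 reads in all. All batches at E17.5 stood above all those from P9 on, and the pooled level at E17.5 was 4114-fold that of P60 (interval from counts 1407-fold to 19951-fold, adjusted p = 0.000768). That interval covers the counting of reads only, not the spread between cells or batches. Few cells carried most of it: 33.8% of α cells at E17.5 had a read (22 of 65), the highest cell held 4966 CPM and that cell gave 33.8% of the group's Cartpt reads. At P0 a single cell gave 86.7% of them. The share was 21.7% at P0, 6.67% at P9 and at P15, 9.09% at P18 and 1 of 83 cells at P60. Batches differed: at E17.5 batch 2 held Cartpt in 66.7% of its cells (14 of 21) and the others in 16.7% to 25%. Without batch 2 the share was 18.2% (8 of 44) and the ratio to P60 2147-fold, and without batch 1 the ratio was 6816-fold. Without batch 1 the share was 12% at P0 and 4% at P18.

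β cells held less Cartpt. The 3 batches at E17.5 had 0, 0.476 and 11 CPM, 12.3% of cells had a read (7 of 57), and the P60 batches held 0, 0, 0, 0 and 0.452 CPM, which overlap with E17.5. The log2 change was -5.63 ± 1.81 in single-cell batches (adjusted p = 0.0537) and -3.76 ± 1.33 in bulk (adjusted p = 0.0536), where E17.5 held 0.665 and 4.03 CPM and P60 held 0 and 0.32 CPM. Both missed the threshold. Over the 6 shared stages Cartpt was higher in α than in β cells (log2 difference 3.93 ± 1.29, adjusted p = 0.0194). Without batch 2 at E17.5, 3.85% of β cells there (1 of 26) had a read. The call over shared stages was lost without the α batch 4 at P9 (3.26, adjusted p = 0.0502) and could not be fitted without the α batch 5 at P60, the one with the 3 reads of that stage, and the difference at E17.5 alone did not pass (3.75 ± 1.98, adjusted p = 0.276).

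Cck encodes cholecystokinin, a gut and brain peptide. In α batches it stood at 3.04, 3.83, 7.83 and 51.4 CPM at E17.5, 0.467, 4.61 and 9.01 CPM at P0, and 0.357, 1.36 and 3.37 CPM at P9. It had no read at P15 and at P60, and 1 of 44 cells with reads at P18. The P60 level was at least 553-fold lower than at E17.5 (adjusted p = 0.00369), the E17.5 and P60 batches did not overlap, and the share of α cells with a read went from 35.4% (23 of 65) through 19.6% and 15.6% to 0 of 83. Bounds of this kind cover the counting of reads only, not cells missed at P60. The α batch 2 at E17.5 held 51.4 CPM and reads in 13 of 21 cells, and without it the bound was 126-fold and the share 22.7% (10 of 44); without batch 1 the bound was 915-fold. In β batches Cck held 0.404, 0.475 and 3.14 CPM at E17.5 and no read in any batch from P9 to P60. That fall was called (at least 51.6-fold, adjusted p = 0.0319), on 123 reads from 6 cells, of which 1 cell gave 48.8%. Leaving out batch 1 or 3 at E17.5, or any 1 of the 5 batches at P60, took the adjusted p to between 0.0503 and 0.134, and the bound was 15.5-fold without batch 3 and 96.7-fold without batch 2 at E17.5. In bulk β cells Cck had 9 and 12 reads at E17.5 and at most 3 in any later library.

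**Figure D3:**
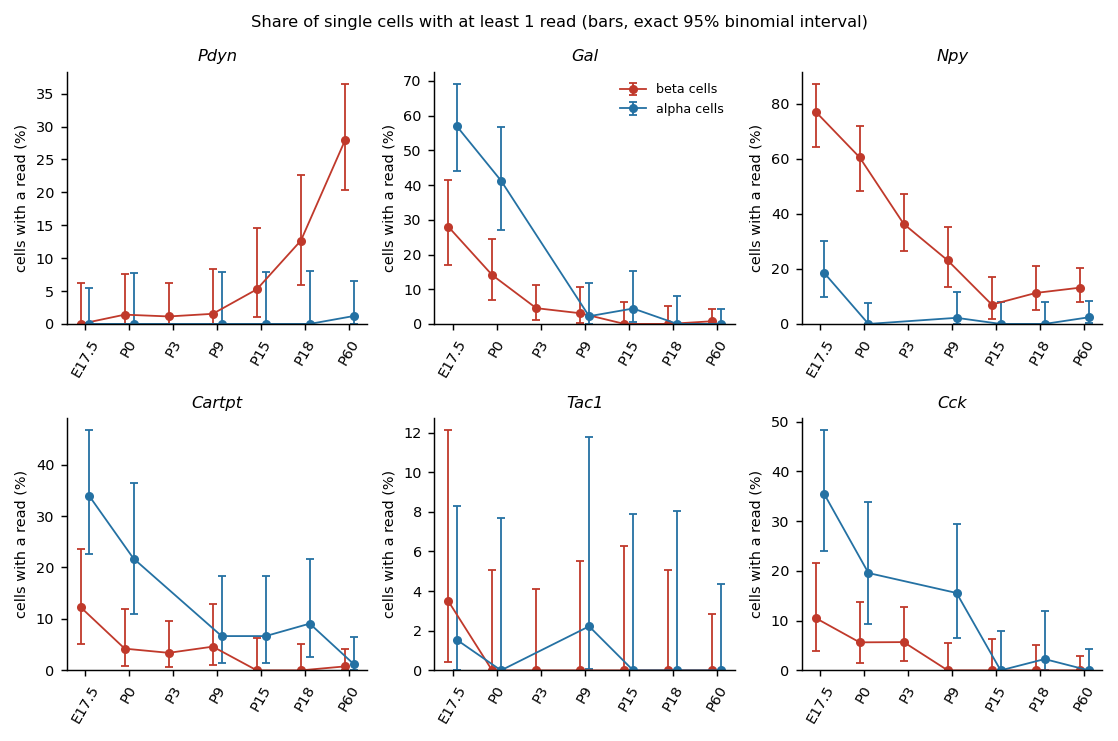
Share of single cells with at least 1 read of each gene by stage in β cells (red) and α cells (blue), in percent on axes that differ between panels; bars are exact 95% binomial intervals, which cover counting error only. Pdyn climbs to 27.9% of β cells at P60, Npy declines from 77.2% of β cells at E17.5, and Gal, Cartpt and Cck start at 56.9%, 33.8% and 35.4% of α cells.

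The other 4 genes were at or near 0. Vip, the precursor of vasoactive intestinal peptide, was seen in bulk only at early stages: 0.222 and 0.82 CPM at E17.5, 1.61 and 1.82 CPM at P0, and 1.11 and 0.368 CPM at P3. From P9 to P60 the 8 libraries held 3 reads in all. It was called lower at P60 than at E17.5 (at least 4.86-fold, adjusted p = 0.0338), but not without E17.5 replicate 2 (adjusted p = 0.171), P60 replicate 1 (0.119) or P60 replicate 2 (0.138), when the bound ran from 2.20-fold to 2.55-fold; without E17.5 replicate 1 it was 8.14-fold. The acinar covariate took its adjusted p to 0.381. In the same comparison 4 of 6 mesenchymal, 3 of 6 endothelial, 3 of 5 erythroid, 4 of 6 duct and 2 of 3 ε markers fell, and of 7 neuron markers 1 fell and 2 rose. Summed mesenchymal markers were 67.5 and 155.9 CPM at E17.5, 325.2 and 1129 CPM at P0, and 9.35 and 2.24 CPM at P60. The part of such cells in the bulk Vip reads was not tested. Among single cells, Vip had 2 reads in 1 β cell at E17.5 and 1 read in 1 α cell at P9.

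Tac1, the precursor of substance P and neurokinin A, was found in 2 of 538 β cells and 2 of 328 α cells, with 43.5 CPM at most, and no comparison called it. In bulk its highest level was 0.831 CPM, from 15 reads in the P3 replicate 1 library. Adcyap1, which encodes PACAP, had 7 reads in the P0 replicate 2 library and 2 reads in the other 13 libraries together. Nts, the neurotensin precursor, had 12 reads in the P15 replicate 1 library and 3 reads elsewhere. Neither gene had a read in any of the 866 unselected cells. At P60, with 3 cells as the limit of a count of 0, this allows a share of up to 2.33% of β cells and 3.61% of α cells.

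Counting every comparison, edgeR called 3 of the 5 bulk-tested genes from E17.5 to P60 (29.1% of all genes), 1 of 5 from E17.5 to P9 (8.18%) and 1 of 5 from P9 to P60 (16.2%). In single β cells 4 of the 6 tested genes changed from E17.5 to P60, 1 higher and 3 lower (6.97% of all genes), and 0 of 6 in either shorter step (1.25% and 0.626%). At an unadjusted p under 0.05, 3 of 6 passed from E17.5 to P9 (Gal, Cartpt and Cck) and 3 of 6 from P9 to P60 (Pdyn, Gal and Npy, while Tac1 and Cck could not be fitted), and DESeq2 called 1 and 0. Of all 18537 genes, 2099 passed unadjusted in the first step and 1772 in the second. In single α cells 3 of 6 fell from E17.5 to P60 (9.97% of all genes called), and 0 of 6 were called in the shorter steps (3.48% up to P9 and 0.847% after it), where 3 passed unadjusted in each (Gal and Cartpt in both, with Npy before P9 and Cck after it) and DESeq2 called 1 in each. Of all 18537 genes, 3254 passed unadjusted up to P9 and 2540 after it. Between α and β cells, edgeR called Npy and Cartpt over the shared stages (28.8% of all genes called), Npy at E17.5 (8.31%), and Pdyn and Npy at P60 (12.9%). None was called for the difference in change between cell types. There, 0 of 3 genes that could be fitted had an unadjusted p under 0.05 (2979 of all 18537 genes), and DESeq2 also called 0, while limma with equal weight per cell called 5. The shares of all genes called by DESeq2 and by limma are not given here, so their counts have no background. The other 3 genes could not be fitted by edgeR. The edgeR counts above cover only genes past the low-count filter. In single-cell batches that filter left out Vip, Adcyap1 and Nts, which had few or no reads there. The genes were also chosen with earlier results of these data known. The edgeR counts and the shares of all genes are therefore given side by side, and a difference between them was not tested. Collection method split the batches: in FACS-sorted batches alone 6 of the 12 single-cell calls passed, and in hand-picked batches alone 1 of 12.

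Per kilobase of the deposited gene length, levels can be set side by side within a library. In β batches at E17.5 Npy stood at 746 to 1842 CPM per kb, Gal at 2.83 to 16.7, Cartpt at 0 to 12.6 and Cck at 0.59 to 4.58 CPM per kb. Npy was therefore the highest in each batch, and the other 3 overlapped. In α batches at E17.5 the order differed, with Cartpt at 18.6 to 329, Gal at 22.7 to 68.6, Cck at 4.43 to 75 and Npy at 0 to 18.7 CPM per kb, and the ranges of Cartpt, Gal and Cck overlapped. At P60, β batches held Pdyn at 0.657 to 30.8 and Npy at 0 to 90.5 CPM per kb, which overlap, and α batches held at most 2.79 CPM per kb of any of the 9 genes.

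At least 1 read of any of the 9 genes was found in 327 of the 866 cells (37.8%, exact 95% interval 34.5% to 41.1%), and at E17.5 several genes met in 1 cell. With at least 10 reads as the criterion, 15 of 65 α cells at E17.5 held 3 or more of the 9 genes, 9 held 2, 18 held 1 and 23 held none. By P0 no α cell of 46 held 3 or more, and at P60 82 of 83 held none. In β cells 1 of 57 held 3 or more at E17.5, 15 held 2 and 28 held 1. At P60, 93 of 129 β cells held none and 31 held 1. Of the 18 α cells with Cartpt at E17.5, 15 also held Gal (83.3%), which is 45.5% of the 33 cells with Gal, and the product of the 2 shares would give 9.14 cells. Gal and Cck met in 15 cells (75% of the 20 with Cck), and Cartpt and Cck in 10 cells. In β cells at E17.5 the 15 cells with Gal held Npy in 11, against 9.47 from the product of the shares, and Gal and Cartpt met in none. At P60, 4 of the 9 β cells with Npy also held Pdyn. Cells of a batch share library and depth, so these overlaps are a description.

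**Figure D4:**
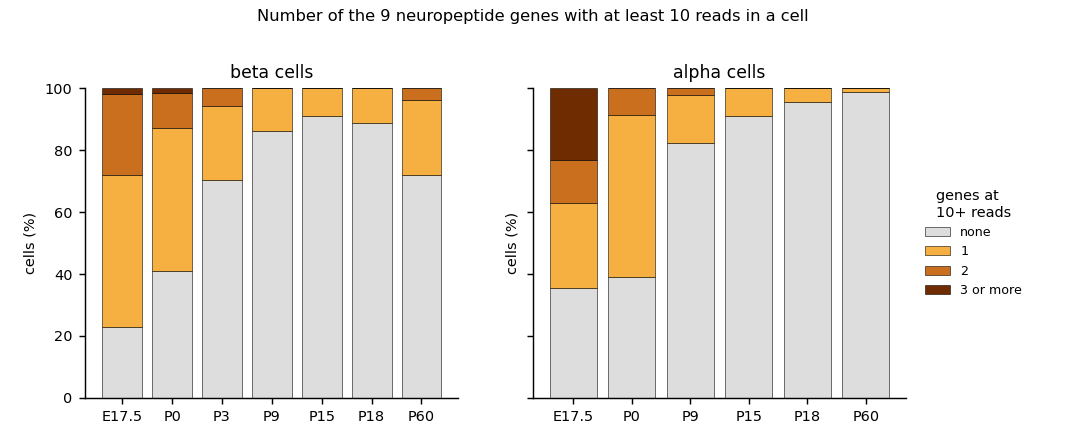
Percent of single cells at each stage that held none, 1, 2 or at least 3 of the 9 genes at 10 or more reads, for β cells (left) and α cells (right). The darkest segment, at least 3 genes, covers 15 of 65 α cells at E17.5 and no α cell at later stages, and at P60 82 of 83 α cells hold none.

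Hormone medians were set side by side for cells with and without a neuropeptide gene, at 10 or more reads. In β cells at P60, Ins1 had a median of 160669 CPM in the 31 cells with Pdyn and 146962 CPM in the 98 without, the median of Gcg, Sst and Ppy was 0 in both, and the median number of genes detected was 7869 and 7505.5. In α cells at E17.5, Gcg had a median of 123603 CPM with Gal and 125338 CPM without. The 10 α cells with Npy at that stage had a median of 768.3 CPM of Ins1, against 16.8 CPM in the 55 without and 84503 CPM in the β cells with Npy, and their median of Gcg was 115725 CPM, against 125523 CPM. The 20 α cells with Cck had a median of 121.7 CPM of Ppy, the pancreatic polypeptide gene, against 551.9 CPM in the 45 without, and the 18 with Cartpt had 172.1 against 531.8 CPM. For Gal the median of Ppy was 241.1 CPM with and 514.4 CPM without at E17.5, but 1177 CPM with and 602.5 CPM without at P0. Ghrl, the marker of ε cells, had a median of 0 in α cells at E17.5 with and without Gal or Cartpt and 0.808 CPM in those with Cck. At P0 it was 10.1 CPM in the 7 α cells with Cartpt and 0 in the 39 without. All 3 ε markers fell in α batches from E17.5 to P60, and their summed level ran from 7.96 to 88.2 CPM at E17.5, 80.6 to 179 CPM at P9 and 0 to 0.52 CPM at P60. From E17.5 to P9 none of the 3 was called, and their median log2 change was -2.90. The part of ε-like cells in the fall of Gal, Cartpt and Cck was not tested. These medians over cells carry no test.

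Some of the 9 genes were also found in cells left out of the comparisons. Among 12 Sst+ multi-hormone cells from the β reporter, 3 had Pdyn (331.8 CPM at most) and 3 had Npy. Of the 10 multi-hormone cells from the α reporter, 5 had Cck and 5 had Cartpt. The 21 β cells enriched for proliferation had Npy in 9 (1779 CPM at most), and the 4 Ngn3-GFP cells at P0 that were negative for hormone had no read of any of the 9 genes.

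The receptors through which these peptides act were described from a list of 20 genes with a row, of which 9 were tested in bulk and 10 in single cells. In bulk β cells from E17.5 to P60, 2 rose (Galr1 and Vipr1) and 3 fell (Adcyap1r1, Galr2 and Oprm1), with a median log2 change of -0.06 over the 9, against -0.03 over all genes. Of all genes in that comparison, 13.8% rose and 15.2% fell. Galr1, a receptor for galanin, stood at 26.5 ± 1.67 CPM and then 57.3 ± 1.33 CPM (SD, n = 2 each), with a log2 change of 1.11 ± 0.23 (adjusted p = 0.00406). Vipr1, a receptor for VIP and PACAP, went from 19.5 ± 1.23 to 117 ± 10.5 CPM, a log2 change of 2.59 ± 0.25 (adjusted p = 4.18e-05). In single β batches Vipr1 alone was called, from 3.55 ± 6.15 CPM (SD, n = 3) to 38.1 ± 14.4 CPM (SD, n = 5), a log2 change of 3.46 with adjusted p = 0.0487. There, 6.97% of all genes were called, 3.08% higher and 3.89% lower.

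Galr1 was higher in β than in α cells at both ends. At E17.5 it held 13.1 to 33.1 CPM in β batches and 0 to 0.862 CPM in α batches (log2 difference -6.32 ± 1.06, adjusted p = 5.59e-05), and at P60 51.1 to 77.1 CPM and 0 to 4.85 CPM (-6.11 ± 0.91, adjusted p = 4.50e-06). The reverse held for Npy1r, a receptor for neuropeptide Y, which stood at 6.97 to 10.6 CPM in α batches and 0.237 to 0.323 CPM in β batches at E17.5 (4.78 ± 1.11, adjusted p = 0.00359). At E17.5 the β batches, high in Npy, were low in Npy1r, and the α batches, with Gal in 43.3% to 75% of cells, were low in Galr1. The β batches held Gal as well as Galr1, with Gal at 2.02 to 11.9 CPM. The α against β difference in Gal was not called there (adjusted p = 0.657). From E17.5 to P60, 2 of the 10 receptors fell in α cells (Cckar and Vipr2) and 0 rose, with a median log2 change of 0.34, against -0.0028 over all genes. Of all genes in that comparison, 9.97% were called, 5.66% lower.

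All 10 genes of the list of precursor-processing enzymes were tested. From E17.5 to P60, 6 rose and 0 fell in single β batches (median log2 change 0.62, against -0.013 over all genes), 4 rose and 2 fell in α batches (0.21), and 4 rose and 1 fell in bulk (0.50). Of all genes, 6.97% were called in the β, 9.97% in the α and 29.1% in the bulk comparison, which also holds for the precursor and degrading-enzyme lists below. Pcsk1, which encodes the convertase PC1/3, was nearly confined to β batches at P60, with 418.5 to 553 CPM against 0 to 10.6 CPM in α batches (log2 difference -7.90 ± 0.95, adjusted p = 9.28e-08). Pcsk2, the PC2 convertase gene, was higher in α batches at P60 (5402 ± 534 CPM, SD, n = 5, against 2648 ± 378 CPM, SD, n = 5; log2 difference 1.03 ± 0.11, adjusted p = 1.24e-08). Pcsk1n, the proSAAS inhibitor of PC1/3, rose in β batches from 304.8 ± 25.5 (SD, n = 3) to 1085 ± 76.3 CPM (SD, n = 5), a log2 change of 1.82 ± 0.20 (adjusted p = 3.91e-08). Scg5, the 7B2 chaperone of PC2, rose in both cell types, by 1.62 ± 0.16 in β batches (adjusted p = 2.96e-09) and by 1.58 ± 0.14 in α batches (adjusted p = 1.45e-09).

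**Figure D5:**
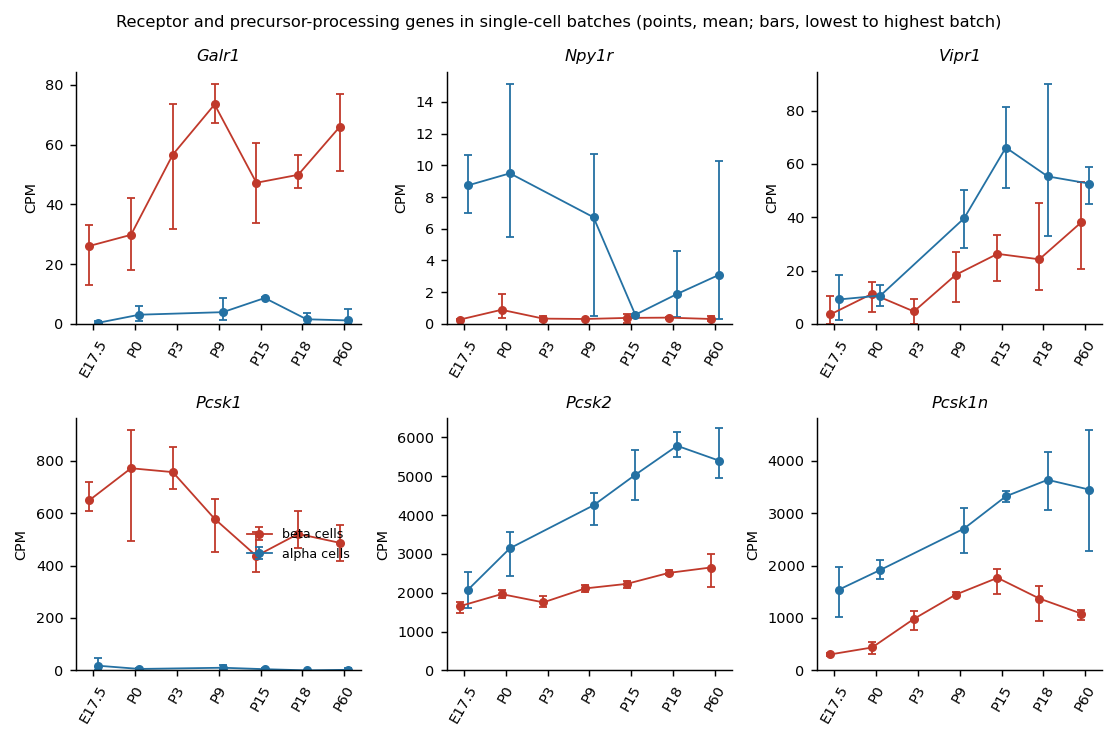
Level in CPM of 3 receptor genes and 3 precursor-processing genes in single-cell batches by stage, for β cells (red) and α cells (blue); points are means over batches and bars run from the lowest to the highest batch. Galr1 and Pcsk1 lie higher in β batches at E17.5 and P60, and Npy1r lies higher in α batches at E17.5 (6.97 to 10.6 CPM).

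Of 37 other peptide precursor genes with a row, 20 were tested in bulk and 24 in single cells. In single β batches from E17.5 to P60, 5 rose (Chga, Iapp, Scg2, Scg3 and Ucn3) and 4 fell (Gip, Npb, Pyy and Sct), with a median log2 change of -0.65. In α batches 4 rose (Chga, Nucb2, Scg2 and Scg3) and 4 fell (Gast, Gip, Iapp and Sct), with a median of -1.58. The granins Chga and Scg2, proteins of the granule itself, rose in both cell types, and Gip fell in both. Other precursors rose too, Iapp and Ucn3 in β batches and Nucb2 in α batches. In β batches Chga went from 2403 ± 429 (SD, n = 3) to 13013 ± 351 CPM (SD, n = 5, adjusted p = 7.51e-11) and Gip from 22.8 ± 11.6 to 0.0195 ± 0.0275 CPM (adjusted p = 0.000138). Sct, the secretin gene, had 120.4 ± 67.3 CPM (SD, n = 4) in α batches at E17.5 and 0.337 ± 0.494 CPM (SD, n = 5) at P60, with a log2 change of -8.53 ± 1.31 (adjusted p = 3.13e-05). Of 8 peptide-degrading enzymes, all tested, 1 rose and 2 fell in β batches and 0 rose and 1 fell in α batches. Dpp4, which trims incretins and neuropeptide Y, was that 1 in each: it rose in β batches from 16.2 ± 4.27 (SD, n = 3) to 58.2 ± 27.3 CPM (SD, n = 5), by 1.85 ± 0.56 on the log2 scale (adjusted p = 0.0345), and fell in α batches from 233.6 ± 25.2 (SD, n = 4) to 41 ± 23.6 CPM (SD, n = 5), with a log2 change of -2.57 ± 0.49 (adjusted p = 0.000428).

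Across the 45 batches, the 3 genes most like each neuropeptide gene were found by Pearson's r of log2(CPM + 1). For Pdyn they were Tmem35 (r = 0.887), Asb11 (0.810) and Ghitm (0.763), and for Npy they were Clec12b (0.871), Nnat (0.851) and Cytip (0.840). For Gal they were Mia (0.874), Ak4 (0.865) and Mdk (0.864), and for Cck they were Chad (0.786), Ak4 (0.783) and Guca2a (0.779). For Cartpt they were Guca2b (0.911), Bcl2l15 (0.885) and Lgals2 (0.882), and for Tac1 Slc25a21 (0.882), Tspo2 (0.820) and Plxnd1 (0.790). The values for Tac1 rest on the 4 batches with reads, and Spearman's rho with Slc25a21 was 0.170. Among the 9 genes themselves, Gal with Cartpt (0.831), Cartpt with Cck (0.763) and Gal with Cck (0.757) had the highest values, and Pdyn had values of -0.309 to -0.124 with the other 5. The batches share stage, cell type and method, so these values describe 45 batches and carry no test.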

How the data were processed

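The deposited tables give whole-number read counts per gene for bulk libraries and for single cells, made by the authors; the submitters' processing notes name TopHat2 2.1.0, HTSeq 0.6.0, DESeq 1.20.0 and the build GRCm38/mm10, with no role or order, and strand settings are not given in the sources used here. Rows of the 92 spike-in RNAs (median 2.72% of a cell's reads) were left out. Cells labelled multi-hormone (26), enriched for proliferation (21) or Ngn3-GFP (4) stayed out of the tests, and the counts of the other 866 cells were summed per labelled batch (45 batches of 5 to 39 cells, 5.96 M to 49.1 M reads). For libraries and batches, CPM are counts scaled to the library size after TMM scaling. For single cells they are counts scaled to the gene reads of the cell, so the 2 kinds of CPM are not on 1 scale.

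edgeR 4.0.16 (R 4.3.3) fitted all genes past its low-count filter, 16086 in bulk and 18537 in batches, with TMM scaling, quasi-likelihood tests and Benjamini-Hochberg adjustment; all adjusted p-values are from these fits unless another tool is named. Batch fits held cell type by stage (13 groups) and collection method (FACS or hand), and a call needed an adjusted p under 0.05. limma 3.58.1 and DESeq2 1.42.0 served as alternatives. Groups without reads were set to a floor of 3 reads over the group ("at least"), and ratios carry exact 95% intervals of the pooled read counts. Both treat reads as independent, so neither covers the spread between cells or batches. Levels between genes were to use the deposited TPM, and CPM per kb of the deposited gene length was used instead. Doublets were not called. In simulated counts with known changes, 96% of 4-fold changes were recovered for bulk E17.5 to P60, 60% for β batches and 70% for α batches. Only genes above a minimum level were changed in that simulation, so the rates cover such genes alone. Several of the neuropeptide genes had few or no reads in batches, and whether the rates hold for the neuropeptide genes was not tested.

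The 9 genes and all lists were chosen with earlier results of these data known. All 9 genes are described; values of list genes are given for some of the up to 3 called genes per list and comparison that had the lowest p and reached 5 CPM in the higher group, picked from these after their values were seen. Same-numbered samples did not deviate together (mean correlation 0.0461 in bulk and 0.0135 in batches), so numbers were not used as pairs.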

Additional observations from a re-analysis of the deposited data

Results flagged for a closer look

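In 8 of 15 groups of 4 or more batches in which a gene had reads, 1 batch stood far from the others of its group; chance alone flags some such groups, and groups mostly at 0 are flagged by any 1 batch with reads. Among β batches these were Pdyn at P3 in batch 2 (1.80 CPM), Gal at P60 in batch 1 (0.205 CPM), Npy at P60 in batch 3 (51.2 CPM), Cartpt at P3 in batch 5 (0.973 CPM) and Cartpt at P60 in batch 3 (0.452 CPM). Among α batches they were Npy at P60 in batch 5 (1.58 CPM), Tac1 at E17.5 in batch 2 (0.544 CPM) and Cck at E17.5 in batch 2 (51.4 CPM). Without the β batch 3 at P60, the log2 difference of Npy between α and β cells at P60 was -1.21 (adjusted p = 0.742).

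Reads also appeared in cells outside the comparisons. Cartpt was found in 5 and Cck in 5 of the 10 multi-hormone cells from the α reporter, Npy in 5 of the 16 multi-hormone cells from the β reporter, and Npy in 9 of the 21 β cells enriched for proliferation. These cells were selected and have no matched controls, so the counts carry no test.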

How the results depend on the processing

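The 17 calls on single genes gave 128 values under the planned settings, of which 103 kept direction and call, 24 kept direction only and 1 reversed: Npy in α against β cells at P60 had a log2 difference of 0.88 in FACS-sorted batches alone (adjusted p = 0.903). DESeq2 kept 17 of 17, no low-count filter 17 of 17, RLE scaling 16 of 17, no term for collection method 12 of 12, equal weight per cell 10 of 12, FACS-sorted batches alone 6 of 12, hand-picked batches alone 1 of 12, and the acinar covariate 2 of 5; batches alone by method hold fewer samples, and the cause of the other losses was not tested.

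The number of the 9 genes called changed as follows. The share of all genes called under each other setting is not given here, so these counts show only how the 9 genes moved. With the acinar covariate it was 1 for bulk E17.5 to P60 (3 without), 0 for E17.5 to P9 (1 without) and 2 for P9 to P60 (1 without). With no low-count filter it was 4 for bulk E17.5 to P9, 3 for bulk P9 to P60 and 1 for β batches P9 to P60 (0 with it). DESeq2 called 3 for bulk P9 to P60, 1 for β batches E17.5 to P9, 1 and 1 for the shorter steps in α batches, and 4 for α against β over the shared stages (2 by edgeR). Equal weight per cell gave 2 for β batches E17.5 to P9, 1 for β P9 to P60, 3 for α E17.5 to P9, 5 for α against β over the shared stages, 4 at E17.5, 1 at P60, and 5 for the difference in change between cell types (0 by edgeR). FACS-sorted batches alone gave 1 for β E17.5 to P60 (4 with both), 1 for α against β over the shared stages and 0 at P60; hand-picked batches alone gave 0 for β and 0 for α batches E17.5 to P60, 0 over the shared stages, 0 at E17.5 and 1 at P60. RLE scaling gave 1 at P60 (2 by TMM).

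With the replicate number as a block, 15 of the 17 calls passed; Cck in β batches E17.5 to P60 (adjusted p = 0.0567) and Npy in α against β at P60 (adjusted p = 0.136) did not, and the count was 2 for bulk P9 to P60 and 1 for α against β at P60. Same-numbered samples did not deviate together (correlations of -0.205 to 0.402 in bulk and -0.0973 to 0.166 in batches, where pairing asked for every value to be above 0.1), so they share only a number.

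Leaving out 1 library or batch at a time gave counts of 2 to 4 for bulk E17.5 to P60, 1 for E17.5 to P9 and 0 to 2 for P9 to P60. In batches they were 2 to 4 for β E17.5 to P60, 0 for β E17.5 to P9, 0 to 1 for β P9 to P60, 3 for α E17.5 to P60, 0 to 1 for α E17.5 to P9, 0 for α P9 to P60, 1 to 2 for each of the 3 α against β comparisons and 0 for the difference in change. Of 152 such values for single genes, 131 kept their call, 21 lost it and 0 reversed; for the shared stages, batches of P0, P15 and P18 were not left out. The share of cells with any of the 9 genes was 29.4% at 10 or more reads, against 37.8% at 1 or more. Thinning each cell to 500000 reads gave 34.5%. In simulated counts 2-fold changes were recovered in 54% of cases in bulk E17.5 to P60, 32% in β and 24% in α batches, again only for genes above the simulation's minimum level. Pooled folds and shares with 1 library or batch left out, an alternative chosen after seeing the data, are given beside their results where they moved by over 1.5 times.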
